A study of Homo sapiens with 4 samples.

Results

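QKI, FXR2 and ATXN2 are genes of RNA-binding proteins. The FXR2 and ATXN2 proteins are known components of stress granules, and QKI has been described as moving into them. The m7G peaks of the 3 genes are described here in HepG2, a human hepatocellular carcinoma cell line cultured without treatment. The peaks are all those listed under these gene names in the authors' lists. These 3 genes carried 5 of the 3355 peaks of m7G immunoprecipitation (IP) replicate 1 and 3 of the 4747 peaks of replicate 2, or 8 of 8102 in all. The study pulled down poly(A) RNA with an antibody against N7-methylguanosine (m7G), with 2 IP samples and 2 input samples that did not meet the antibody; all 4 came from untreated HepG2 cells. Input values were not analysed here. A peak is a stretch of mRNA that the authors called as enriched, and its fold enrichment, a ratio, and its p-value are the authors' own values for that peak. Read depth is unknown from peak lists, so no counting interval accompanies a fold. Separate cultures are not stated for the IP samples in the labels, and the spread between them may be technical.

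m7G forms the cap at the start of mRNAs and also occurs inside RNAs, where the METTL1 and WDR4 methyltransferase is a known writer. QKI belongs to the STAR family of KH-domain proteins. It binds RNA elements with an ACUAA core, acts in splicing, mRNA stability and circular RNA formation, and has been described as a reader of internal m7G that moves with its target transcripts into stress granules. FXR2 is a paralog of FMR1, the fragile X protein, with KH domains and a place on polyribosomes and in stress granules. ATXN2 carries an LSm domain and a polyglutamine tract, binds the poly(A)-binding protein PABPC1 and is needed for normal stress granule assembly. Stress granules are condensates of untranslated mRNA and protein that form when translation initiation stalls. The values below describe the mRNAs of these genes, not the proteins.

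Each of the 3 mRNAs had a peak that began near the start of the gene in both IP samples. Peaks were counted as shared where the same gene and strand overlapped, block by block, by 50% or more of the shorter peak. Of the 5 peaks in replicate 1, 3 were shared, and so were all 3 peaks of replicate 2. Across the whole lists the shared part was 65.1% in replicate 1 and 45.4% in replicate 2, and nothing particular is read from counts this small. By gene, all 3 had peaks in both lists, against 51.7% of 3769 genes listed in at least 1 of them. The lists give no expression level, so a gene without a peak can lack m7G or lack mRNA.

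**Figure D1:**
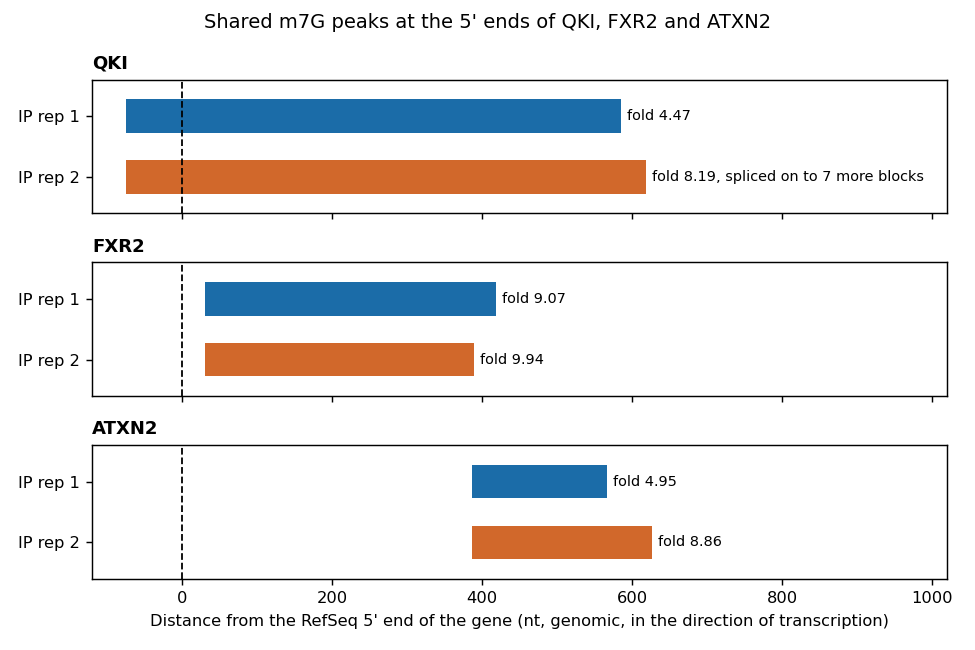
Bars show the first block of each shared peak of QKI, FXR2 and ATXN2 in IP replicates 1 and 2 along the genomic distance, in nt, from the 5′ end of the gene in RefSeq (dashed line). In each gene both bars begin at the same base, -75, 30 and 386 nt from that end, while the other edge differs between the replicates.

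The sequence in the RefSeq promoter table (GRCh38.p14) at the edge of the FXR2 peak is shown because it marks the base where both lists began the enriched stretch. FXR2 was the 1 gene of the 3 that the table held. Capitals mark the 20 bases that lie inside the peak in both lists, and the first 10 bases lie between the gene start and the peak. The stretch runs 5′ to 3′ on the minus strand at chr17:7614848-7614877.
FXR2 peak edge: ggggaggtggAGGCTGTGGAGCGGCAGCGG
The 250 bases before the start of FXR2 (chr17:7614898-7615147, minus strand, 5′ to 3′) give the context upstream of the peak, which the peak does not reach.
FXR2 upstream: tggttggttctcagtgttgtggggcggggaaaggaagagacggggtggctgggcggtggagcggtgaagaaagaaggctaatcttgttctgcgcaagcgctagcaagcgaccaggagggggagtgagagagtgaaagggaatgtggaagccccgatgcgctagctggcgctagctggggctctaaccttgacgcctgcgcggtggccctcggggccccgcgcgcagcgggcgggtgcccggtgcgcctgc
Its G and C content was 66.0%, against a median of 58.0% over the same stretch of the 35116 promoters in the table, of which 69.6% had a lower value.

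QKI, the KH-domain protein, had 1 peak in each list, on the plus strand of chromosome 6 (GRCh38) and beginning at 163414643 in both. In replicate 1 it was a single block of 660 nt that ended at 163415302, with a fold of 4.47 and a -log10 p of 15.1. In replicate 2 it had a fold of 8.19 and a -log10 p of 101, and it continued across introns to 163570716. The enriched stretch thus lay in the first block in both samples and went on to further blocks in replicate 2 alone.

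The replicate 2 peak of QKI joined 8 blocks into 1559 nt of RNA over a genomic span of 156074 nt. Its first block held 693 nt and ended at 163415335, 33 nt past the end of the replicate 1 peak. The other 7 blocks measured 143, 117, 144, 88, 276, 75 and 23 nt in the direction of transcription and summed to 866 nt. No QKI peak of replicate 1 covered them. The gaps between blocks ranged from 1374 to 56085 nt. The last block, from 163570694 to 163570716, ended 7876 nt before the 3′ end of the gene's span, which RefSeq places at 163578592. Transcript models were not used, so the blocks were not assigned to QKI isoforms, which are known to differ at the C-terminal end.

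**Figure D2:**
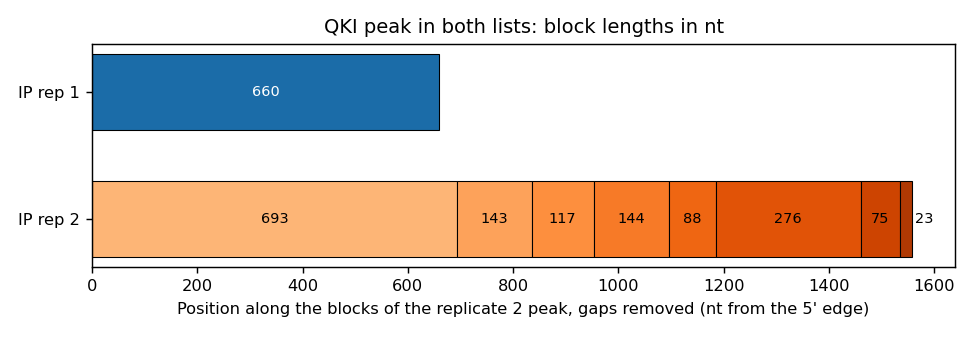
The QKI peak of IP replicate 1 (upper bar) and the 8 blocks of the IP replicate 2 peak (lower bar) are laid end to end without introns, in nt from the shared 5′ edge, with block lengths printed. The replicate 1 peak of 660 nt lies within the first block of 693 nt, and the 866 nt of the other blocks are in the replicate 2 peak alone.

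A peak of this structure was rare. Of the 4747 peaks of replicate 2, 5 had 8 or more blocks; the other 4 lay in the collagen genes COL27A1 (2 peaks), COL18A1 and COL9A3, named here after their values were seen. In replicate 1, the 4 peaks with 8 or more blocks lay in those same collagen genes. The QKI peak was longer than 98.6% of peaks in replicate 1 and longer than 99.9% in replicate 2. By p-value it ranked at place 473 of 3355 in replicate 1 and at place 41 of 4747 in replicate 2, whereas by fold it ranked at places 1279 and 607. In both lists the p-value of QKI thus ranked higher than its fold.

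The start of the QKI peak lay 75 nt before the 5′ end of the gene's RefSeq span (163414718 to 163578592). Of all placed peaks, 10.1% in replicate 1 and 7.53% in replicate 2 began before the annotated gene. The RefSeq gene LOC124901234, protein-coding and on the same strand, spans 163411581 to 163415176. Its span thus covers most of the replicate 1 peak of QKI (163414643 to 163415302). The same holds for the first block of the replicate 2 peak (163414643 to 163415335). LOC124901234 had 0 peaks of its own in either list. Reads of these overlapping genes cannot be told apart in the lists.

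FXR2, the FMR1 paralog, had its shared peak on the minus strand of chromosome 17, beginning in both lists at 7614867, 30 nt inside the gene (7591230 to 7614897). The peak ran to 7614479 in replicate 1, a length of 389 nt, and to 7614509 in replicate 2, a length of 359 nt. Its fold was 9.07 in replicate 1 and 9.94 in replicate 2, with a -log10 p of 8.43 and 15.0. Of these 3 genes, FXR2 had the highest fold in each list and the closest agreement between lists. SHBG, the gene of the sex hormone-binding globulin, lies on the opposite strand and its span (7614064 to 7633372) covers this peak. SHBG had 0 peaks in either list. The libraries were stranded per the labels, but how the strand was used in calling peaks is not given in the sources used here.

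FXR2 had a further peak in replicate 1 at the other end of the gene, from 7591320 to 7591379, in a single block of 60 nt. Its fold was 4.24 and its -log10 p was 3.97. The peak ended 90 nt before the 3′ end of the gene, with its midpoint 119.5 nt from it. Midpoints within 200 nt of the 3′ end, or beyond it, were found for 3.43% of replicate 1 peaks. It was short, since 96.0% of the peaks in the list were longer. Replicate 2 listed no FXR2 peak there.

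ATXN2, the LSm-domain protein, had its shared peak on the minus strand of chromosome 12, beginning in both lists at 111599287, 386 nt inside the gene (111452214 to 111599673). It reached 111599107 in replicate 1 (181 nt) and 111599047 in replicate 2 (241 nt). The fold was 4.95 in replicate 1 and 8.86 in replicate 2, with a -log10 p of 4.85 and 7.25. The 5′ edge of the ATXN2 peak lay further inside its gene than those of QKI and FXR2. No peak of another gene in either list overlapped this ATXN2 peak, or any other peak of the 3 genes.

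ATXN2 also had a peak in replicate 1 alone, from 111456071 to 111456221 in 1 block of 151 nt, which is the median length of a peak in both lists. Its fold of 2.56 was the lowest of the 8 peaks, and its -log10 p was 3.99. It ended 3857 nt before the 3′ end of the gene by genomic distance.

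The shared and the single peaks differed in p-value within replicate 1. The 3 shared peaks had -log10 p values of 15.1, 8.43 and 4.85, and the 2 single peaks had 3.97 and 3.99. In that list, 21.6% of peaks had a weaker p than the single FXR2 peak and 22.8% had a weaker p than the single ATXN2 peak. For the shared ATXN2 peak, the weakest of the 3, this share was 40.4%. By fold, the single peaks had 4.24 (FXR2) and 2.56 (ATXN2), and the lowest shared peak had 4.47 (QKI). Over the whole of replicate 1, the median -log10 p was 6.94 for peaks shared with replicate 2 and 4.20 for those without a partner, while the median fold was 3.71 for each kind. The single peaks of FXR2 and ATXN2 were thus near the median p of peaks without a partner. Of the 428 genes with 2 peaks in replicate 1, 22.0% had only the peak nearer the 5′ end shared, as FXR2 and ATXN2 did. A further 49.1% had both peaks shared, 16.1% only the one nearer the 3′ end and 12.9% neither.

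The edges of the 3 shared peaks were set beside those of all shared peaks. All 3 began at the identical base in both lists, and all 3 ended at different bases. Of the 2128 one-to-one shared peaks of the lists, 33.4% had the same 5′ edge and 27.0% the same 3′ edge. Those shares cover peaks at any place in a gene, and the share among peaks near a gene start is not given here. All 3 peaks also began within 500 nt of the 5′ end of their gene in each list, a window chosen with these values known. Of all placed peaks, 43.2% in replicate 1 and 37.8% in replicate 2 did so, with a median fold of 4.53 and 4.74. In the stress granule and KH-domain lists below, every shared peak with the same 5′ edge began within this window. The same edge and the place near the start are therefore not read as separate traits of the 3 genes. The edges moved in steps: the other edge differed by 30 nt in FXR2 and 60 nt in ATXN2. Among the 1326 unspliced shared pairs, edges that differed did so by a multiple of 30 nt in 66.0% of cases at the 5′ side and 67.7% at the 3′ side, so an identical edge has a resolution of about that step in most peaks.

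The folds of the shared peaks were set beside each list. The mean over the lists was 6.33 ± 2.63 (SD, n = 2) for QKI, 9.51 ± 0.615 (SD, n = 2) for FXR2 and 6.91 ± 2.76 (SD, n = 2) for ATXN2. The SDs of QKI and ATXN2 hold a shift between lists that both genes have, so these means were not used to compare genes. Within replicate 1, FXR2 stood at 9.07 against 4.47 for QKI and 4.95 for ATXN2. Within replicate 2 it stood at 9.94 against 8.19 and 8.86. Folds of different genes were compared within a list only, and no difference between genes was tested. In replicate 1, the QKI peak had a higher fold than 61.8% of peaks, the ATXN2 peak than 66.7% and the FXR2 peak than 91.2%. In replicate 2 the values were 87.2% for QKI, 88.7% for ATXN2 and 91.7% for FXR2. The order QKI, ATXN2, FXR2 was the same in both lists, but the genes lay close together in replicate 2. Among peaks of the same length quartile the shares were 58.4% and 80.4% for QKI, 59.9% and 83.1% for ATXN2, and 89.9% and 87.1% for FXR2, replicate 1 before replicate 2. The single peaks of replicate 1 had a higher fold than 57.9% of that list (FXR2) and 27.4% (ATXN2).

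**Figure D3:**
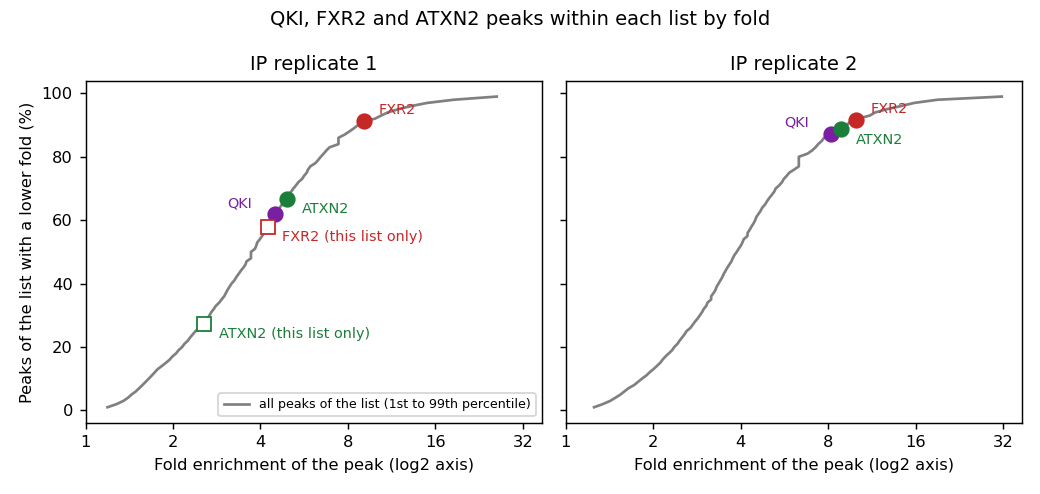
The share of peaks in each list with a lower fold is plotted against fold (log2 axis) for all peaks (grey line) and for those of QKI, FXR2 and ATXN2; filled circles are peaks shared by both lists and open squares are peaks of replicate 1 alone. FXR2 sits above 91% of both lists, while QKI and ATXN2 lie at 61.8% and 66.7% in replicate 1 and at 87.2% and 88.7% in replicate 2.

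Each of the 3 shared peaks had the higher fold in replicate 2, as did 54.9% of the 2128 shared peaks. The fold of replicate 2 over replicate 1 was 1.83 for QKI, 1.79 for ATXN2 and 1.10 for FXR2. The median of this ratio over all shared peaks was 1.03, with an interquartile range of 0.838 to 1.31. The ratio of QKI exceeded that of 90.6% of shared peaks and that of ATXN2 exceeded 90.1%, whereas FXR2 stood near the middle at 56.7%. For QKI the folds refer to stretches of different length, since the replicate 1 peak covered 42.3% of the replicate 2 peak. In ATXN2 it covered 75.1%. The part of peak length in these ratios was not tested.

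**Figure D4:**
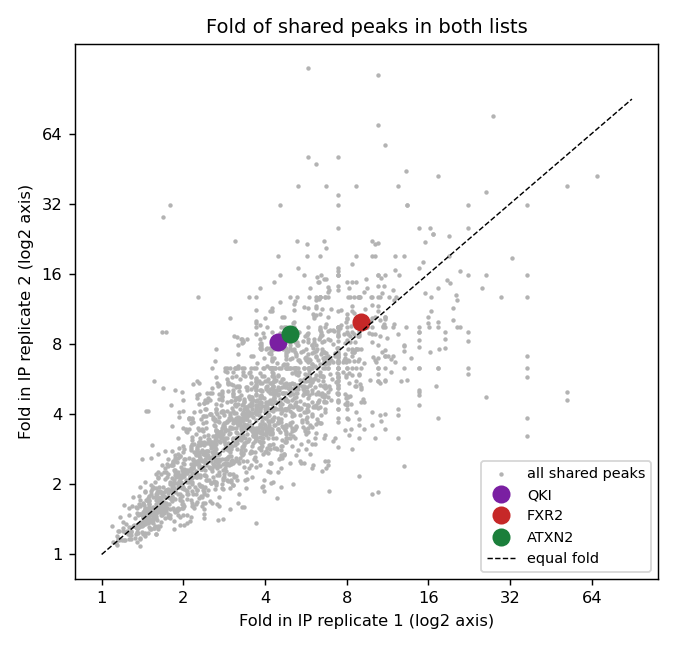
Fold in IP replicate 2 is plotted against fold in IP replicate 1, both on log2 axes, for all 2128 shared peaks (grey) with QKI, FXR2 and ATXN2 in colour; the dashed line marks equal fold. FXR2 lies near the line at 9.07 and 9.94, and QKI and ATXN2 lie above it with ratios of 1.83 and 1.79.

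Folds in these lists take recurring values, the commonest being 7.42 in replicate 1 (107 peaks) and 6.33 in replicate 2 (196 peaks). Both shared-peak folds of ATXN2 are, within rounding to the printed digits, simple fractions of it with whole numbers no larger than 10, namely 2/3 in replicate 1 and 7/5 in replicate 2. The single FXR2 peak stands at 4/7 of it. The folds of QKI and of the shared FXR2 peak, and the single ATXN2 peak, match no such fraction. Whole numbers above 10 were not tried, so these folds are not shown to be free of the pattern. Of all peaks, 28.8% in replicate 1 and 32.4% in replicate 2 match one, so 3 of 8 is close to the lists as a whole.

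The paralogs differed in whether they were listed at all. FMR1 and FXR1, the paralogs of FXR2, had 0 peaks in both lists. ATXN2L, the paralog of ATXN2 and also a stress granule protein, had 4 peaks in replicate 1 and 3 in replicate 2. Its peak nearest the 5′ end joined 3 blocks on chromosome 16, from 28823048 to 28825643 in replicate 1 (568 nt, fold 2.71) and from 28823078 to 28825643 in replicate 2 (538 nt, fold 2.52). A peak towards the 3′ end had 6 blocks and a fold of 1.86 in replicate 1, and 7 blocks and a fold of 2.54 in replicate 2. Both paralogs of the ataxin-2 family thus had a peak at the 5′ side, with lower folds in ATXN2L than in ATXN2 in each list.

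The genes whose shared peak lay nearest in fold over the 2 lists were found by the Euclidean distance of log2 folds among 1705 other genes with a shared peak. For QKI they were RAB32 (folds 4.45 and 8.05), RAB12 (4.45 and 8.43) and KHNYN (4.45 and 8.43). For FXR2 they were PRR11 (8.90 and 10.1), GSK3B (9.27 and 9.78) and HS3ST3A1 (8.73 and 9.94). For ATXN2 they were ZNF282 (5.06 and 8.99), OGFR (4.83 and 8.62) and PPM1B (4.76 and 8.76). All 9 lay within 0.06 log2 units of their gene, replicate 1 folds being given before those of replicate 2.

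The 3 genes were then placed among genes of related proteins, in lists chosen with earlier results of these data known. FXR2 and ATXN2 are themselves counted in the stress granule list, which leaves out QKI, and QKI and FXR2 are counted in the KH-domain list. The intervals below thus give counting error only and are no test. Of 36 genes of stress granule proteins, 22 had a peak in either list and 14 in both (63.6%, 95% Wilson interval 43.0 to 80.3%, against 51.7% of all genes), 8 had one in replicate 2 alone, and 14 had none. A peak shared by position was present in 12, among them FXR2 and ATXN2. The median fold at the shared peak of those 12 was 4.19 in replicate 1 and 3.31 in replicate 2, against 4.24 and 4.49 over all 1708 genes with a shared peak. FXR2 and ATXN2 thus stood above the median of the list in both samples. Close to them were NUFIP2, an FMR1-interacting protein (folds 8.09 in replicate 1 and 7.59 in replicate 2, and in this order below), ELAVL1, which encodes the AU-rich element binder HuR (9.15 and 4.64), and IGF2BP2, an mRNA-stabilising KH protein (7.88 and 4.89). By the geometric mean of both folds, the low end held LARP1, which binds TOP mRNAs (3.58 and 2.14), ATXN2L (2.71 and 2.52) and PABPC1, the protein that ATXN2 binds (2.49 and 2.09). PRRC2A, YBX1, PABPC4 and YBX3 had folds between 2.66 and 4.57.

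In 10 of the 12 stress granule genes the shared peak began within 500 nt of the gene's 5′ end, against 58.3% of genes with a shared peak. The exceptions were NUFIP2 and LARP1. The same 5′ edge in both lists was found for 7 of the 12, against 35.2%. All 7 were among the 10 that began within 500 nt, so these 2 counts are not separate features of the list. A higher fold in replicate 2 was found for 3 of the 12, against 54.9%. Besides FXR2 and ATXN2, the third was YBX3 (3.13 and 3.37). PUM2 and CELF1, both translational or stability regulators, had a peak in each list, but these did not meet the overlap rule. G3BP1, a core nucleator of stress granules, had a peak in replicate 2 alone with a fold of 1.83, and so did its partner CAPRIN1 with 1.5; both were singled out after their values were seen.

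Of 34 genes of KH-domain proteins, 19 had a peak in either list and 15 in both (78.9%, 95% Wilson interval 56.7 to 91.5%, against 51.7%). All 15 had a shared peak, and QKI and FXR2 are counted among them. The median fold was 3.85 in replicate 1 and 4.41 in replicate 2, against 4.24 and 4.49 over all genes with a shared peak. At shared peaks, FXR2 had the highest fold of this list in each replicate. By the geometric mean of both folds, MEX3C (5.65 and 7.59), IGF2BP2 and QKI followed. Within single lists QKI stood lower against some genes. PCBP1 (6.11) and PCBP2 (5.57) also exceeded QKI (4.47) in replicate 1, and FUBP3 (8.43) exceeded QKI (8.19) in replicate 2. Like QKI, KHDRBS3, another STAR protein (3.86 and 7.91), and FUBP3, a far upstream element-binding protein (3.85 and 8.43), had a higher fold in replicate 2. In all, 9 of the 15 had a higher fold in replicate 2, against 54.9%. The STAR-related splicing factor SF1 had 3.71 and 3.15. HNRNPK (1.35 and 1.30), HDLBP (1.36 and 1.48) and PCBP4 (1.45 and 1.55) had the lowest folds, at peaks away from the gene start. PCBP1, PCBP2, KHSRP, MEX3D and AKAP1 lay between 2.56 and 6.11.

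**Figure D5:**
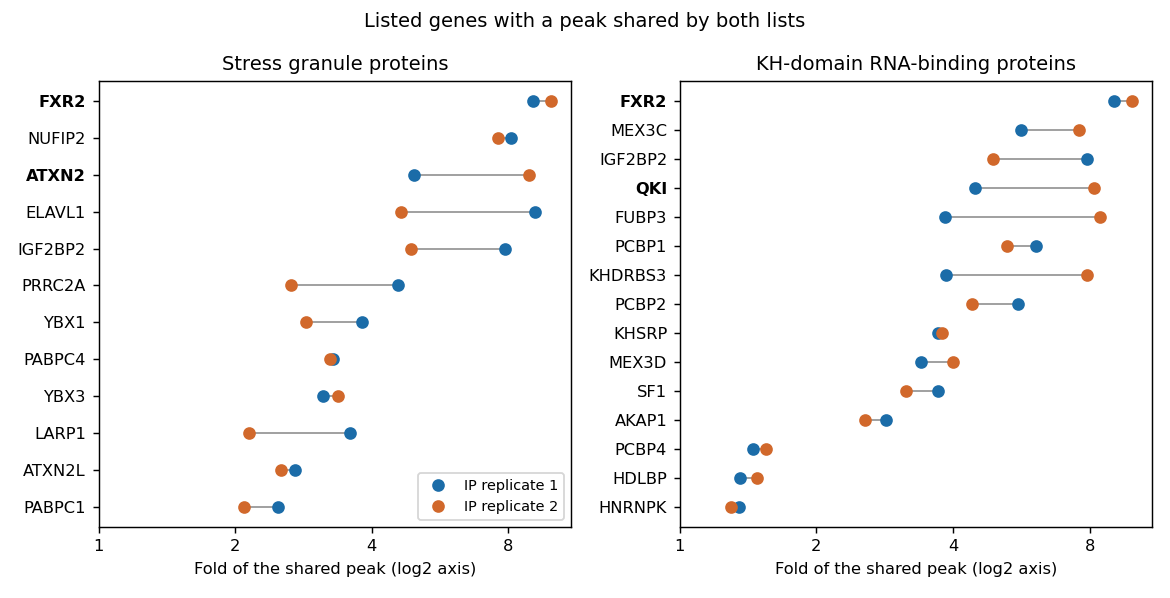
Fold of the shared peak on a log2 axis in IP replicate 1 (blue) and IP replicate 2 (orange) for the 12 stress granule genes and the 15 KH-domain genes that have one, ordered by the geometric mean of both folds, with QKI, FXR2 and ATXN2 in bold. FXR2 is at the top of both panels, and QKI, KHDRBS3 and FUBP3 have the widest gaps among KH-domain genes.

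P-body genes gave a different count. Of 19 genes of P-body proteins, which act in decapping and mRNA decay, 5 had a peak in either list and 0 in both (95% Wilson interval 0 to 43.4%, counting error only), against 51.7% of all genes. The 5, named after their values were seen, were EDC3 (fold 18.5) and TNRC6A (37.1) in replicate 1 and EDC4 (50.6), EIF4ENIF1 (44.3) and AGO2 (3.33) in replicate 2. Within rounding, the folds of EDC3, TNRC6A, EDC4 and EIF4ENIF1 are whole multiples or simple fractions of the commonest fold of their list. That fold was 7.42 in replicate 1 and 6.33 in replicate 2, with whole numbers no larger than 10 allowed. The fold of AGO2 matches no such fraction. Read depth is unknown, so the high folds are not read as strong m7G. The P-body counts too can reflect mRNA levels, which were not measured. No difference between these gene groups and the other genes was tested.

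Facts of the whole series that touch these values are few. The median fold was 3.71 in replicate 1 and 3.87 in replicate 2, and both lists stop at a -log10 FDR of 1.32. Of 13 hepatocyte and HepG2 marker genes, 6 had a peak in both lists, whereas 0 of 4 endothelial markers had one. ALB and AFP were among the hepatocyte markers without a peak. Of 5 immune markers 2 had peaks (CD68 and LYZ), and of 4 stellate and fibroblast markers 1 had (ACTA2). Peak lists do not measure expression, so these counts do not test the labelled cell type.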

How the data were processed

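The authors deposited 1 peak list per m7G IP sample; input samples were not analysed here. Per the submitters' processing notes, STAR and GRCh38 are listed, with no version or role stated. The peak caller is not given in the sources used here. Each deposited fold is a ratio, and per the file headers its denominator is unnamed. The deposited p-value and its log10, used as a score of the authors' caller, ranked peaks. Symbols, or older symbols at the same place, were looked up in RefSeq genes of GRCh38.p14, leaving 3 and 6 peaks unplaced. Starts were converted to 1-based positions. Distances are genomic, and midpoints were taken along blocks. The main rule for a shared peak was an overlap of 50% of the shorter peak, with 1 base, 80% reciprocal overlap and the 50% of each list with the best p as alternatives. A gene's best shared peak had the highest geometric mean fold.

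QKI, FXR2 and ATXN2, the gene lists and the settings were chosen with earlier results of these data known. Some items are not reported here and were left out of the gene lists. Named genes are those 3, their paralogs, listed genes with peaks in both lists and the 3 nearest genes by fold; others (genes overlapping a peak, markers, and those said to be singled out) fall outside this rule. With 2 samples of 1 condition there is no contrast between groups, and no test was run. Overlap rules and midpoints were tested on simulated lists of 200 peaks and recovered all 5 planted answers. Tables were made with Python 3.11.15, pandas 2.3.3 and numpy 2.4.6, intervals with scipy 1.17.1, and plots with matplotlib 3.10.9.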

Additional observations from a re-analysis of the deposited data

How the results depend on the processing

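With 80% reciprocal overlap, the FXR2 peak alone stayed shared, 1 peak in each list in place of 3, because the QKI and ATXN2 peaks differ in length between lists; the same rule left 8 KH-domain genes, against 15 at 50% of the shorter peak and 15 by gene name, and 9 stress granule genes, against 12 and 14. Within the 50% of each list with the best p, 2 peaks in each list were shared in place of 3, because the replicate 1 peak of ATXN2 is not among them. Against that part of each list, the share of peaks with a lower fold became 88.3% for the shared FXR2 peak in both replicates (91.2% and 91.7% over all peaks), 54.4% for its single peak (57.9%) and 30.5% for the single ATXN2 peak (27.4%). Among shared peaks, FXR2 in replicate 2 stood above 91.0%. The midpoint of the replicate 2 QKI peak was 40647 nt from the 5′ end along the blocks and 77961.5 nt as a genomic midpoint, by construction of a peak across introns. Leaving out a replicate gave mean folds of 4.47 to 8.19 for QKI, 9.07 to 9.94 for FXR2 and 4.95 to 8.86 for ATXN2, the values of the single lists. The 35 alternatives not counted as moved, those means and the 2 shared peaks among them, stayed within the spread between replicates, their interval or, for counts, 1.5 times. For the means this was fixed in advance, since each of 2 values lies closer to their mean than their SD. The count of 35 is therefore no measure of stability. No paired analysis was possible because input samples were not analysed here. The depth behind each list is not known, and it sets which peaks can be called at all.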
